A study of Mus musculus with 6 samples.

Results

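The Zic genes encode zinc finger transcription factors of the early neural plate and dorsal neural tube, and 4 of them, Zic1, Zic2, Zic4 and Zic5, were described here out of 19938 measured genes. They were chosen by symbol: table rows annotated with a single gene symbol equal to a member, with the row of the highest mean standing for a gene. This gave 6 of 21789 such probe sets, 1 each for Zic1 and Zic2 and 2 each for Zic4 and Zic5. RNA from heads of C57BL/6 embryos at E8.5 was measured on Affymetrix Gene ST arrays, with 4 heads pooled per array, in 3 pools of Jarid1b heterozygotes and 3 pools of Jarid1b knockouts. Both groups came from a line in which Jarid1b exon 6 had been deleted with a Cmv-cre transgene. The controls therefore carried a deleted allele as well, no wild-type pools were measured, and the embryos were untreated. Jarid1b is a demethylase of H3K4me2/3, and the comparison asked whether transcript levels in the early head differed without it.

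ZIC proteins bind DNA through tandem C2H2 zinc fingers that resemble those of the GLI factors, the effectors of Hedgehog signaling. They act in neural plate specification, in the formation of neural crest and in the patterning of the dorsal neural tube, and some of them also act in mesoderm and somites. Loss of ZIC2 causes holoprosencephaly, a failure to divide the forebrain, and deletions of ZIC1 and ZIC4 are known from the Dandy-Walker malformation of the cerebellum. The genes lie in head-to-head pairs, Zic1 with Zic4 on chromosome 9 and Zic2 with Zic5 on chromosome 14 of the mouse.

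Jarid1b itself, on the array as Kdm5b, came first as a check of the labels. Its log2 intensity was 9.17, 9.12 and 9.16 in heterozygotes and 7.63, 7.47 and 7.71 in knockouts, which lay well below, at a log2 fold change of -1.55 ± 0.07 (SE) (limma, adjusted p = 6.29e-04). The array design does not say here whether its probes cover the deleted exon. It was the only one of 21789 probe sets at an adjusted p under 0.05, which is 0.00459% of them. At an unadjusted p under 0.05, 5.97% of all probe sets lay higher in knockouts and 4.66% lay lower, 10.6% together. The groups did not overlap for 17.1%, with the knockouts above in 8.03%, and the log2 fold change was above 0 for 49.7%. Of the 4 Zic genes, each by its row of the highest mean, only Zic1 had a positive log2 fold change. Zic2 joined it after quantile normalization or cyclic loess. Zic4 joined it with rows averaged per gene, with arrays weighted, or without replicate 1 of either genotype. The dimmer Zic4 row was at 0.03. The dimmest 7263 probe sets had a median log2 fold change of 0.056, the middle 7263 of -0.00037 and the brightest 7263 of -0.035. At an unadjusted p under 0.05, 10.5% of the dimmest lay higher and 1.57% lower, 6.72% and 5.71% of the middle, and 0.716% and 6.71% of the brightest. In a head pool, fewer cells with a transcript and less transcript per cell cannot be told apart.

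Zic1, a factor of the dorsal neural tube and cerebellar primordium, had the largest log2 fold change of the 4 genes in either direction, yet it did not pass the adjusted threshold and its groups overlapped. Its log2 intensity was 5.66, 5.84 and 5.75 in heterozygote replicates 1, 2 and 3, and 5.80, 6.07 and 6.00 in knockout replicates 1, 2 and 3. Knockout replicates 2 and 3 lay above all heterozygote pools, while knockout replicate 1 lay below heterozygote replicate 2. The means were 5.75 ± 0.09 (SD, n = 3 pools) and 5.96 ± 0.14 (SD, n = 3). The log2 fold change, knockout minus heterozygote, was 0.21 ± 0.08 (SE), or 1.16-fold, with 95% limits of 0.01 and 0.40 (limma, unadjusted p = 0.038, adjusted p = 0.445). The exact two-sided permutation test over the 6 pools gave p = 0.2, where 0.1 is the smallest p that 3 pools against 3 allow. Zic1 was the only one of the 4 genes at an unadjusted p under 0.05, beside 10.6% of all probe sets and 6.72% higher among the middle 7263, to which it belongs. With the mean of the Y-linked genes as a covariate, which went partly with genotype, its log2 fold change was 0.13 (limma, unadjusted p = 0.223, adjusted p = 0.733). After quantile normalization it was 0.18 (unadjusted p = 0.071, adjusted p = 0.625).

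Zic2, the member needed for division of the forebrain and for neural tube closure, was near the same level in all pools. Its log2 intensity was 8.69, 8.81 and 8.71 in the heterozygote pools and 8.73, 8.73 and 8.64 in the knockout pools. Heterozygote replicate 2 was highest and knockout replicate 3 lowest, and the groups overlapped. Knockout minus heterozygote, the log2 fold change was -0.04 ± 0.06 (SE) (limma, adjusted p = 0.844, exact permutation p = 0.6). The 95% interval, from -0.17 to 0.0998, corresponds to a fold between 0.887 and 1.07, so that changes of that size were not resolved by these 6 pools. The sign of this small value changed to 0.0081 after quantile normalization.

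Zic5, which acts in cranial neural tube closure and neural crest formation, had its 3 knockout pools below its 3 heterozygote pools on the brighter probe set, as did 9.03% of all probe sets and 16.8% of the brightest 7263, among which it lies, with no such separation on its dimmer one. On the brighter probe set, the log2 intensity was 8.32, 8.36 and 8.29 in heterozygotes and 8.28, 8.14 and 8.21 in knockouts. The gap between the lowest heterozygote and the highest knockout pool was 0.014 on the log2 scale. This gave a log2 fold change of -0.11 ± 0.06 (SE), or 1.08-fold lower, with 95% limits of -0.25 and 0.02 (limma, unadjusted p = 0.085, adjusted p = 0.522). The exact permutation p was 0.1, the smallest possible. On the dimmer probe set, the log2 intensity was 6.88, 7.14 and 7.04 in heterozygotes and 7.13, 6.91 and 6.89 in knockouts. Here knockout replicate 1 lay next to the highest heterozygote pool and the lowest value of all was a heterozygote pool. The log2 fold change was -0.04, with an interval from -0.26 to 0.17 (limma, adjusted p = 0.885).

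Zic4, the partner of Zic1 in the cerebellar deletions, lay among the dimmest 7263 probe sets with both of its rows. On the brighter row, the log2 intensity was 5.23, 5.21 and 5.21 in heterozygotes and 5.19, 5.24 and 5.22 in knockouts, so that the knockout pools lay on both sides of the heterozygotes. The log2 fold change was -0.0014, with 95% limits of -0.12 and 0.11 (limma, adjusted p = 0.995, exact permutation p = 1). On the dimmer row, the log2 intensity was 4.83, 4.73 and 4.74 in heterozygotes and 4.62, 4.80 and 4.96 in knockouts. The knockout pools held both the lowest and the highest value, with the heterozygote pools in between. For this row the log2 fold change was 0.03, with an interval from -0.18 to 0.23 (limma, adjusted p = 0.940).

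**Figure D1:**
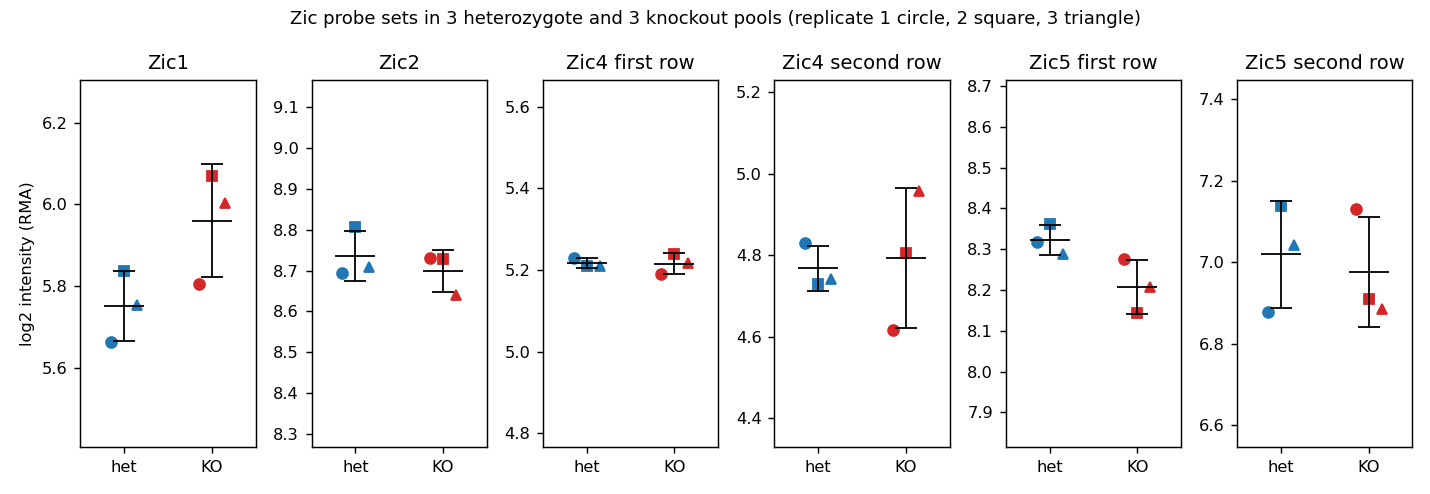
Log2 RMA intensity of the 6 Zic probe sets in each pool, with heterozygotes in blue, knockouts in red, symbols for replicate numbers, and the mean with its SD (n = 3) in black. The first row of Zic4 and Zic5 is the brighter one, and each panel spans the same height. The panels show Zic1 at 5.66 to 5.84 for heterozygotes against 5.80 to 6.07 for knockouts.

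Which of the paired rows speaks for Zic4 and Zic5 could not be settled. Identifiers on this array mostly follow the order of genes along the chromosomes, and 94.35% of adjacent annotated rows name genes of the same chromosome. Of the 10 rows that flank the brighter Zic5 row by identifier, none named a gene of chromosome 14, where Zic5 lies, and 10 named genes of chromosome 11. Around the brighter Zic4 row, none of 10 named a gene of chromosome 9, and 9 named genes of chromosome 7. Around the dimmer rows, 9 of 10 named genes of chromosome 14 for Zic5 and 9 of 10 of chromosome 9 for Zic4. For Zic1, 10 of 10 flanking rows lay on its own chromosome, and for Zic2, 9 of 10. Both Zic5 rows were annotated with the same RefSeq transcript, while of the Zic4 rows only the dimmer one carried a RefSeq transcript. The positions of the probes themselves were not analysed here, so the lower knockout values of the brighter Zic5 row stand beside a dimmer row whose interval includes both 0 and the same decrease.

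The fold changes of the members were compared with each other through the difference of their log2 intensities within each array. With the brighter Zic4 and Zic5 rows, Zic1 minus Zic5 was larger by 0.32 in knockouts than in heterozygotes, with no overlap of the groups. Zic1 minus Zic2 was larger by 0.24, also with no overlap. Each of these gave an exact permutation p = 0.1, the smallest possible, and 0.24 after adjustment over the 6 pairs. In the other 4 pairs the groups overlapped, with shifts from -0.04 for Zic2 minus Zic4 to 0.21 for Zic1 minus Zic4. With the dimmer rows, chosen after seeing the data, Zic1 minus Zic5 was larger by 0.25 and its groups overlapped, knockout replicate 1 having the lowest difference of all (exact permutation p = 0.4, adjusted p = 0.8). These shifts use the same pools as the fold changes above and are not separate evidence. Zic1 lies among the middle 7263 probe sets, with a median log2 fold change of -0.00037. Zic2 and the brighter Zic5 row lie among the brightest 7263, with a median of -0.035. The part of brightness in these shifts was not tested, and how often other pairs of genes separate was not counted.

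Across the 6 pools, Zic1 and the brighter Zic5 row had a Pearson r of -0.82 (exact permutation p = 0.05, adjusted p = 0.3 over 6 pairs) and a Spearman rho of -0.66 (exact permutation p = 0.175, adjusted p = 0.677). Without the 2 pools farthest from the median of Zic1, r was 0.21. Leaving out the extremes narrows the range of Zic1, so this value cannot show whether the relation is particular to those pools. With the dimmer Zic5 row, r was -0.28 and rho 0.14 (exact permutation p = 0.536 and 0.803, adjusted p = 0.643 and 0.803). Within groups, taken as deviations from the group means, the brighter row gave an r of -0.57 (permutation p = 0.235, adjusted p = 0.494). This permutation shuffled the deviations across both groups, so that it is not an exact test of association within groups. The largest within-group value was that of Zic4 and Zic5 on their brighter rows, r = -0.83 and rho = -0.75 (same permutation, p = 0.047 and 0.111, adjusted p = 0.283 and 0.558), with r = -0.14 without the 2 pools farthest from the median of Zic4. The brighter Zic4 row spanned only 5.19 to 5.24 over all pools. Over all pools and on the brighter rows, r of the other 5 pairs ranged from -0.47 for Zic4 and Zic5 to 0.49 for Zic2 and Zic5, with adjusted p-values from 0.689 to 0.815 in exact permutation tests. On the dimmer rows these became -0.84 and 0.73 (adjusted p = 0.142 and 0.208, exact permutation), with rho of -0.89 and 0.89 (adjusted p = 0.067 for each, exact permutation) and r of -0.97 and 0.48 without the 2 farthest pools, so that no pair passed after adjustment on either set of rows. Of 13187 genes outside the dimmest 7263 probe sets, those whose values over the 6 pools were most like Zic1 were AA388235 (r = 0.993) and F930017D23Rik (r = 0.992). For Zic2 they were Fubp3 (r = 0.9996) and Ap2m1 (r = 0.996), for Zic4 Atp6v1g2 (r = 0.982) and Sh2b2 (r = 0.981), and for Zic5 Dmc1 (r = 0.993) and Eps15l1 (r = 0.990). With only 6 points, r was above 0.9 with Zic1 for 108 genes and with Zic2 for 213. These values are a description of likeness across pools.

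The starts of the genes are shown because H3K4 methylation, the substrate of Jarid1b, gathers at promoters rich in CpG, and because Zic1 and Zic4 start close to each other on opposite strands. The RefSeq promoter table of GRCm38.p6 held 3 of the 4 members, each with 250 bases before and 50 after the start. They are given 5′ to 3′ along the gene, with CpG dinucleotides in capitals. Zic1 is at chr9:91365719-91366018 on the minus strand, Zic4 at chr9:91368722-91369021 on the plus strand, and Zic5 at chr14:122465609-122465908 on the minus strand.
Zic1: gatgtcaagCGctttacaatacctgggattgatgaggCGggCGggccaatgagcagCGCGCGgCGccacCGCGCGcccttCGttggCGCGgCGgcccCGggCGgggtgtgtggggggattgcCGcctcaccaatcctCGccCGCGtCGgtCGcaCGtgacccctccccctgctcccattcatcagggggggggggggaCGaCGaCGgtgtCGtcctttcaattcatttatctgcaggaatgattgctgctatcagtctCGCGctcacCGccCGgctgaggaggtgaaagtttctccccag
Zic4: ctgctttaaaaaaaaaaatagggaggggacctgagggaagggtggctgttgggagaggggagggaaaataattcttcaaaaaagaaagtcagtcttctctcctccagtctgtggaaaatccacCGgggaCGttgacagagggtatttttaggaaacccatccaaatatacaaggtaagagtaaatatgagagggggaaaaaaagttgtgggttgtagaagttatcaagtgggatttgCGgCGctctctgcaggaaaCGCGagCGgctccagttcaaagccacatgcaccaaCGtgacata
Zic5: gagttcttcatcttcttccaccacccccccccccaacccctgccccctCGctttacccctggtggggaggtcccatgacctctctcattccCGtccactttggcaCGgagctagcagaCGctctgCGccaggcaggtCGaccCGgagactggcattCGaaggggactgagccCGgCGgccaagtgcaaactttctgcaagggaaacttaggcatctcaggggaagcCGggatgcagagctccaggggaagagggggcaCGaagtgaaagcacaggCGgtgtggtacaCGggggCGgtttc
The Zic1 window held 31 CpG and 65.3% G and C, the Zic5 window 15 CpG and 62.7%, and the Zic4 window 8 CpG and 46.0%. Over all 32851 promoters of the same length the median was 7 CpG and 52.7%. By CpG count, Zic1 stood at the 90.5th percentile, Zic5 at 67 and Zic4 at 54.2. These Zic1 and Zic4 starts lie 3204 bases apart on opposite strands, and the full RefSeq spans of both genes, other transcripts included, share 138 bases. The letters CCTGCTG, the core of the Zic motif, and GACCACCC, the core of the GLI motif that ZIC proteins also bind, were searched on both strands. Neither occurred in the 3 windows, while 10.5% and 0.807% of all promoters held them. Neither motif contains the other, and their absence speaks only of these windows.

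The measured genes next to the Zic pairs were compared to see how the surroundings behaved. Beside Zic1 and Zic4, Plscr1, a phospholipid scramblase, had all knockout values below the heterozygote ones, at a log2 fold change of -0.19 ± 0.08 (SE) (limma, unadjusted p = 0.036, adjusted p = 0.440). Plscr1 lies among the brightest 7263 probe sets, of which 16.8% were separated below and 6.71% were lower at an unadjusted p under 0.05. Its sign was opposite to that of Zic1 at 0.21, which lies among the middle 7263. Plscr2, Tbc1d2b and Adamts7 ranged from -0.06 to 0.04. Up to 16 annotated genes lay between these neighbors and the pair. Around Zic5 and Zic2, the values were -0.06 for Clybl, 0.14 for the dim Gm5089, -0.05 for Pcca, an enzyme of propionate metabolism, and -0.07 for Ggact. None of these 4 had an unadjusted p under 0.05, and their adjusted p-values in limma ranged from 0.624 to 0.765.

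The closest relatives by protein family are the Gli genes, which carry the Hedgehog response, and the Glis genes. All 6 were measured, none passed at an unadjusted p under 0.05, and their median log2 fold change was -0.0054, beside -0.00072 over all probe sets. Gli1, itself a target of Hedgehog signaling, had log2 intensities of 7.84, 7.88 and 7.87 in heterozygotes and 7.83, 7.63 and 7.81 in knockouts. The knockout pools lay below, with knockout replicate 2 farthest, at a log2 fold change of -0.10 (95% interval -0.26 to 0.05, limma, adjusted p = 0.602). Gli2 and Gli3 were at -0.04 and -0.07, and Glis1, Glis2 and Glis3 at 0.05, 0.07 and 0.03. The 3 knockout pools of Glis2, at 9.34, 9.27 and 9.28, lay above its heterozygote pools at 9.20, 9.26 and 9.23. In each direction 1 of the 6 genes was thus separated, beside 8.03% of all probe sets above and 9.03% below. Each of the 6 intervals included 0. After quantile normalization the median of the 6 was 0.032.

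**Figure D2:**
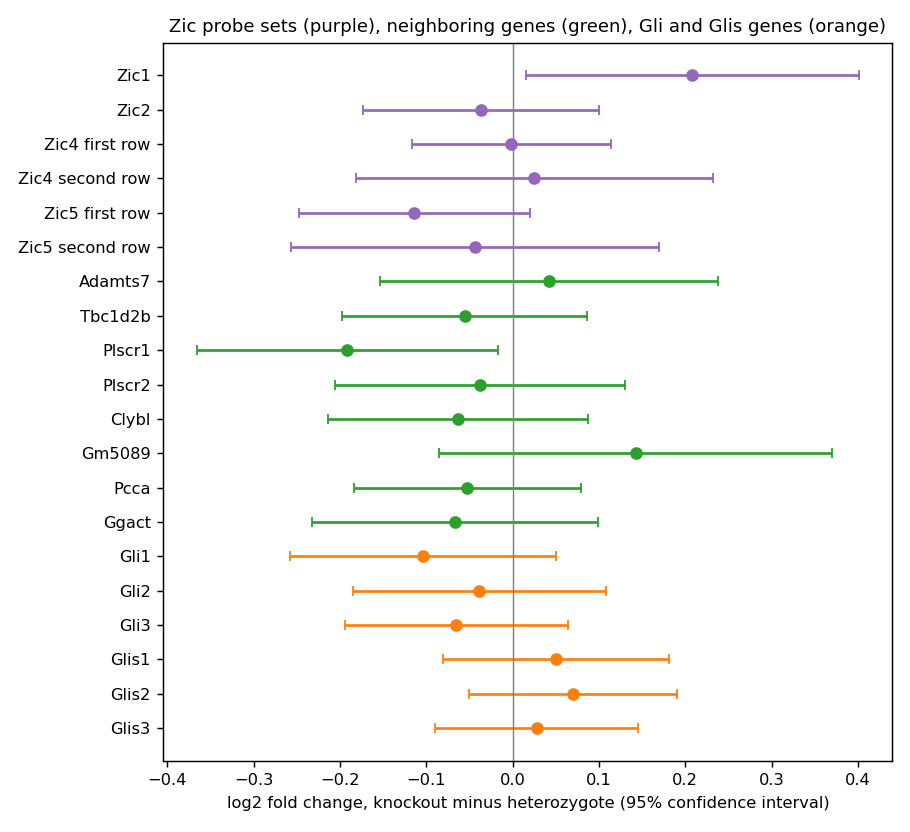
Log2 fold change, knockout minus heterozygote, with its 95% confidence interval from limma, for the 6 Zic probe sets (purple), the 8 measured neighboring genes (green) and the 6 Gli and Glis genes (orange). The intervals of Zic1, from 0.01 to 0.40, and of Plscr1, below 0, leave out 0, while those of all other rows shown include it.

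Genes tied to Zic function were taken as lists, and none of their members passed the adjusted threshold. Counts at the unadjusted threshold are read against the shares by brightness given above, since a bright gene was more often lower than higher and a dim one more often higher. Of the genes named in the lists, Foxh1, Bmp7, Fzd3 and Tfap2b were among the brightest 7263, and Wnt3a, Ephb1, Six3 and En2 among the middle 7263. Of 8 genes for proteins that bind ZIC factors or for targets known from other settings, none was higher and 1 was lower at an unadjusted p under 0.05, and the median log2 fold change was 0.0083. Ephb1, the guidance receptor that Zic2 controls in retinal axons, had a log2 intensity of 7.66, 7.81 and 7.86 in heterozygotes and 7.65, 7.51 and 7.64 in knockouts. The knockout pools lay below all heterozygote pools, if narrowly, at a log2 fold change of -0.17 (limma, unadjusted p = 0.043, adjusted p = 0.459). Atoh1, a proneural factor that Zic1 restrains, was at 0.16 with an interval from -0.12 to 0.44. The ZIC-binding proteins Mdfi, Mdfic and Tcf7l2 lay between -0.04 and 0.02. Apoe, a lipoprotein gene, was at 10.70 in knockout replicate 3, while the remaining pools spanned 11.14 to 11.25. The markers of visceral endoderm were also low in that pool, with a median deviation of -1.14 against -0.02 to 0.27 in the others, and their part in the Apoe value was not tested.

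In the roof plate and dorsal neural tube, where Zic genes are active, 16 of 17 listed genes were measured, with 1 higher and 1 lower below an unadjusted p of 0.05, and the median log2 fold change was -0.0056. Wnt3a, a dorsal midline ligand also made in the tail bud, had log2 intensities of 5.83, 5.78 and 5.72 in heterozygotes and 6.11, 5.99 and 6.21 in knockouts. All knockout pools lay above the heterozygotes, at a log2 fold change of 0.33 ± 0.07 (SE) (limma, unadjusted p = 0.0018, adjusted p = 0.356). Bmp7, one of the BMP ligands that induce dorsal fates, was at -0.13 (unadjusted p = 0.040, adjusted p = 0.452), and Bmp4 at -0.16 with an interval from -0.32 to 0.0073. Groups did not overlap for 3 genes with knockouts above, Wnt3a, Msx3 at 0.26 (unadjusted p = 0.051, adjusted p = 0.470) and Gdf7 at 0.09, and for 2 with knockouts below, Bmp7 and Bmp4. Over all probe sets these shares were 8.03% above and 9.03% below.

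Among 21 genes of the forebrain midline and holoprosencephaly, to which Zic2 belongs by its human disease, 17 were below and 4 above 0 in log2 fold change, and 2 were lower at an unadjusted p under 0.05. The median was -0.04. Of the 21 genes, 10 were among the brightest 7263 probe sets, whose own median was -0.035, and 11 among the middle 7263, with a median of -0.00037. Over all probe sets, 49.7% were above 0. Foxh1, the transcription factor of Nodal signaling, had log2 intensities of 9.02, 8.99 and 9.06 in heterozygotes and 8.72, 8.503 and 8.76 in knockouts. All knockout pools were lower, knockout replicate 2 most, at a log2 fold change of -0.36 (95% interval -0.54 to -0.19, limma, unadjusted p = 0.0016, adjusted p = 0.356). Six3, a factor of the anterior forebrain, was at -0.17 (unadjusted p = 0.043, adjusted p = 0.457). Shh, Nodal and Gas1 were at -0.03, -0.0060 and -0.0029, and Chrd, a BMP antagonist, was highest at 0.05. The median of the list moved with single pools, to -0.077 without heterozygote replicate 1, -0.019 without heterozygote replicate 2 and -0.10 without knockout replicate 1.

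Of 14 neural crest genes, 1 was higher at an unadjusted p under 0.05 and none lower, with a median log2 fold change of 0.01. This was Tfap2b at 0.29 (limma, adjusted p = 0.391), while its paralog Tfap2a was lowest at -0.14 (adjusted p = 0.472). Of 25 measured genes of cranial neural tube closure, Fzd3, a receptor of planar cell polarity, was at 0.19 (unadjusted p = 0.013, adjusted p = 0.407) and the epithelial factor Grhl2 lowest at -0.17 (adjusted p = 0.543). The median of this list was -0.0014. Of 14 genes of the midbrain-hindbrain boundary and cerebellar primordium, 9 were above and 5 below 0 in log2 fold change, with a median of 0.08, and 1 was higher at an unadjusted p under 0.05. En2, a homeobox gene of that region, had log2 intensities of 6.67, 6.78 and 6.64 in heterozygotes and 6.87, 7.17 and 7.14 in knockouts. The knockout pools lay above, at a log2 fold change of 0.37 ± 0.09 (SE) (limma, unadjusted p = 0.0040, adjusted p = 0.388). As for Zic1, knockout replicate 1 had the lowest of the knockout values. The median of this list was 0.039 without heterozygote replicate 1, 0.046 without heterozygote replicate 3 and 0.033 without knockout replicate 1. Pax2 was lowest in this list at -0.11, with an interval from -0.45 to 0.23.

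**Figure D3:**
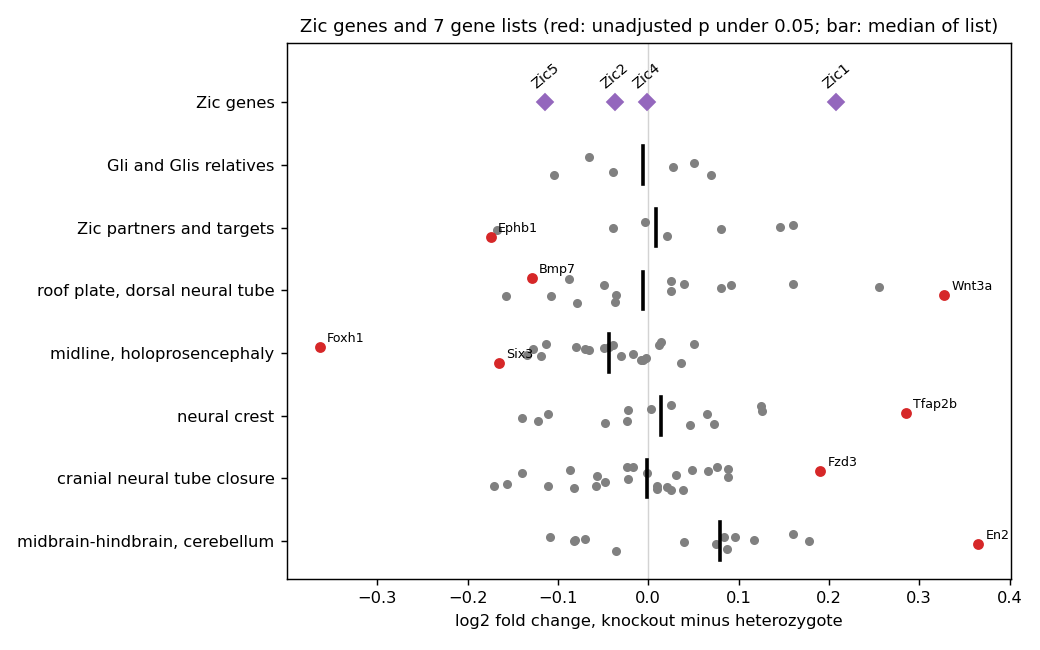
Log2 fold change, knockout minus heterozygote, of the 4 Zic genes (purple diamonds, brighter row) and of each measured gene on 7 lists (gray points, red at an unadjusted p under 0.05), with a black bar at the median of each list. The Zic genes spread from -0.11 to 0.21, and the list medians lie between -0.04 and 0.08.

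The tissue of the pools was checked with markers. Of 12 markers of head neural ectoderm, 11 were measured, none of them among the dimmest 7263 probe sets, with Otx2 at 9.85 to 9.998 on the log2 scale. By the unadjusted threshold, 2 were higher and 3 lower in knockouts. The lower ones were genes of the anterior forebrain and eye field, Hesx1 at -0.39 (limma, unadjusted p = 2.8e-04, adjusted p = 0.356), Rax at -0.20 and Six3 at -0.17, and the higher ones Egr2 of the hindbrain at 0.24 and the neural gene Sox1 at 0.20. Otx2 was at -0.08, with all knockout pools below, as for Hesx1, Rax and Six3, so that 4 of 11 were separated below and 1 above. Over all probe sets, 9.03% were separated below and 8.03% above. Of the brightest 7263, to which Otx2 and Hesx1 belong, 16.8% were separated below and 3.06% above. Of the middle 7263, with Rax and Six3, 8.22% were separated below. Markers of the caudal embryo were dimmer, with 3 of 9 among the dimmest and 6 among the middle 7263. Of the 9, 8 had a positive log2 fold change, beside 49.7% of all probe sets, and Msgn1 was at -0.07. Wnt3a, Tbx6 at 0.23 and Hoxb9 at 0.19 were higher at an unadjusted p under 0.05. At that threshold, 10.5% of the dimmest 7263 and 6.72% of the middle 7263 were higher. Wnt3a is also on the roof plate list, and Fgf17 is also on the midbrain-hindbrain list. The median deviation of the caudal markers from the mean of all pools was -0.08 to -0.03 for heterozygotes, against 0.02 to 0.07 for knockouts. Their summed intensity, on the linear scale, was 429 to 436 against 451 to 492. Zic1 had its higher mean in the same group, and the part of caudal tissue in that value was not tested. Head mesenchyme and somites also hold Zic transcripts. Of their 12 markers, 1 was higher and none lower, and their median deviation overlapped between groups, from -0.08 to 0.04 in heterozygotes and from -0.04 to 0.05 in knockouts.

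Blood and visceral endoderm markers stood out in single pools, and the sum and median of the surface ectoderm markers separated the groups. The 7 blood markers all had a positive log2 fold change, and their summed intensity was 1882 in knockout replicate 2, 548 in knockout replicate 3 and 303 to 399 elsewhere, with 1 marker higher at an unadjusted p under 0.05. Zic1 was highest in the same pools. Without knockout replicate 2 the log2 fold change of Zic1 was 0.15 (limma, adjusted p = 0.565), and without knockout replicate 3 it was 0.19 (adjusted p = 0.642). Without knockout replicate 1 it was 0.29 (limma, adjusted p = 0.390). Leaving out a pool with a high Zic1 value lowers the knockout mean in any case, and the part of blood in the Zic1 value was not tested. The 9 markers of visceral endoderm all had a negative log2 fold change, none at an unadjusted p under 0.05. Of 10 heart markers 3 were lower and none higher, of 8 endothelial markers 1 was higher and 1 lower, and of 9 markers of surface ectoderm 3 were lower and none higher at an unadjusted p under 0.05. Among the brightest 7263 probe sets, which hold 8 of the 10 heart markers, 6.71% were lower and 0.716% higher. The heart markers had a summed intensity of 14239 to 15578 in heterozygotes and 14338 to 14940 in knockouts. That of the head neural markers was 3680 to 4017 and 3785 to 3851. Of the 9 surface ectoderm markers, 7 had a negative log2 fold change, while Grhl3 was at 0.05 and Cldn4 at 0.06. Groups were separated below for 3 of the 9. The brightest 7263 hold 6 of the 9, and 16.8% of those 7263 were separated below. The surface ectoderm markers had a summed intensity of 7917 to 8094 for heterozygotes against 6826 to 7500 for knockouts. Their median deviation was -0.0076 to 0.07 against -0.13 to -0.01, in the same direction as the brighter Zic5 row, and their part in that value was not tested. The 3 Y-linked genes showed pools of unlike sex composition, with a summed intensity of 234, 764 and 218 for the heterozygotes, in order of replicate number, against 559 to 758 for the knockouts. Zic1 was lowest in heterozygote replicates 1 and 3. Xist, the transcript of the inactive X, had a log2 intensity of 4.22 and 3.74 in the second pool of each genotype and 8.82 to 10.17 elsewhere. The part of sex composition in the Zic1 value was not tested apart from genotype. Y-linked values were high in the 3 knockout pools and in heterozygote replicate 2 only, so the covariate fit given above cannot separate them.

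**Figure D4:**
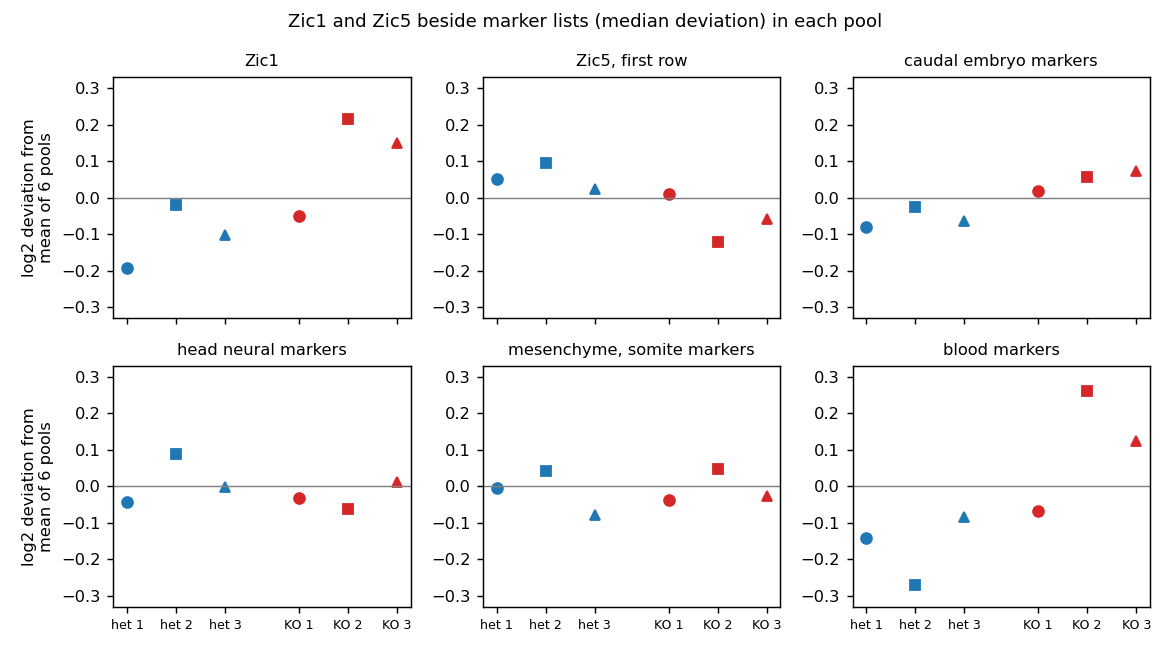
Deviation of each pool from the mean of the 6 pools, on the log2 scale, for Zic1, the brighter Zic5 row and the median of 4 marker lists, with heterozygotes in blue and knockouts in red. Zic1 ranges from -0.19 in heterozygote replicate 1 to 0.21 in knockout replicate 2, and the caudal markers lie above 0 in the 3 knockout pools only.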

How the data were processed

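Heads of E8.5 mouse embryos, 4 per pool, were measured on 3 arrays per genotype, grouped and numbered by title. By the submitters' notes, the deposited intensity values are RMA output of Affymetrix Power Tools (version not given in these sources). The values run from 2.53 to 11741.4 on a linear scale, with array medians from 58.1 to 62.9, and log2 was taken first. Of 35556 rows, the 21789 paired with exactly 1 symbol were tested, 1621 named several genes and 12146 none, and 21698 rows were matched to current symbols through RefSeq gene numbers. The test was limma 3.58.1 in R 4.3.3 (lmFit, then eBayes, no covariate), with p-values corrected after Benjamini and Hochberg across the tested rows. The scripts were tested on simulated data. Precision is limited by having 3 arrays a group, and p-values reflect only differences between the pools, which the methods call biological replicates.

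The genes, lists and tests were chosen with earlier results of these data known. Named genes were all Zic probe sets, Jarid1b, the extremes of each list and its members at an unadjusted p under 0.05, the 2 nearest measured genes on each side of a Zic pair, the 2 genes most like each member across pools, and markers with Xist. Outside this rule, Msx3, Gdf7, Sox1, Egr2, Shh, Nodal and Gas1 were named after their values were seen. The same holds for Apoe, Mdfi, Mdfic, Tcf7l2, Msgn1, Fgf17, Grhl3, Cldn4 and the Gli and Glis genes between the extremes. Alternatives dropped the dimmest probe sets, tested every row, averaged rows per gene, changed normalization, variance model or array weights, added the replicate number or Y-linked mean, and left out each pool. The second rows of Zic4 and Zic5 were followed under them, and in the comparisons between members, after seeing the data. Same-numbered pools were not treated as pairs in the main test. Their deviations from the group means correlated at 0.000759, 0.106 and -0.0132, against -0.0826 to 0.0795 between pools of unlike number. With 3 pools a group, these values cannot exclude pairing.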

Additional observations from a re-analysis of the deposited data

How the results depend on the processing

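Jarid1b was the only call at an adjusted p under 0.05 under each of the 16 alternatives except without heterozygote replicate 2, where Uty was added and the count was 2 (range 1 to 2 when single pools were left out). No Zic value passed this threshold under any of them. The log2 fold change of Zic1 stayed above 0 in 16 of 16, from 0.13 to 0.29 (limma adjusted p from 0.371 to 0.733), and from 0.15 to 0.29 when single pools were left out. That of Zic5 stayed below 0 in 16 of 16, from -0.15 to -0.07. Zic2 turned positive after quantile normalization (0.0081) and cyclic loess (0.0057), was -0.092 with the Y-linked covariate, and ranged from -0.06 to -0.0013 when single pools were left out. Zic4 turned positive with rows averaged per gene (0.012), with array weights (0.0021), without heterozygote replicate 1 (0.0051) and without knockout replicate 1 (0.012), was -0.055 after quantile normalization and after cyclic loess, ranged from -0.013 to 0.012 when single pools were left out, and has no value without dim probe sets. The second row of Zic4 turned to -0.044 after quantile normalization and -0.031 after cyclic loess, and ranged from -0.057 to 0.11 without single pools. The second row of Zic5 ranged from -0.12 to 0.015 without single pools. Of the 4 Zic genes, 0 were at an unadjusted p under 0.05 with all rows tested, after quantile normalization, after cyclic loess and with the Y-linked covariate, and 0 to 2 when single pools were left out. The 2 were Zic1 and Zic5 without knockout replicate 1. With the replicate number as a block, Zic1 stayed at 0.21 (unadjusted p = 0.014, adjusted p = 0.469) and the number of calls at 1. The block changed no call. The cause of these changes was not tested.

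After quantile normalization the list medians were 0.032 (Gli and Glis), 0.036 (roof plate), 0.057 (neural crest) and 0.027 (closure), and after cyclic loess 0.025 (Gli and Glis). With the Y-linked covariate they were -0.034 (closure and neural crest), -0.042 (roof plate), -0.085 (midline) and 0.032 (midbrain-hindbrain). Without single pools they ranged from -0.026 to 0.021 (Gli and Glis), -0.0049 to 0.041 (partners and targets), -0.10 to -0.019 (midline), -0.031 to 0.020 (roof plate), -0.020 to 0.024 (neural crest) and 0.033 to 0.10 (midbrain-hindbrain). Between members, the r of Zic1 and Zic2 turned to 0.25 after quantile normalization and 0.21 for deviations from the group means, that of Zic1 and Zic4 to -0.46 and that of Zic4 and Zic5 to 0.19 after quantile normalization.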
